A study of Mus musculus with 30 samples.

Results

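Ikzf1 to Ikzf5 encode the 5 members of the Ikaros family of zinc finger transcription factors: Ikaros (Ikzf1), Helios (Ikzf2), Aiolos (Ikzf3), Eos (Ikzf4) and Pegasus (Ikzf5). They were taken by symbol from the count tables, 5 of 24459 genes, and their loci from the deposited peak lists. The study examined C57BL/6 mice in which Aiolos carries the missense change G158R, glycine to arginine. RNA was sequenced from sorted bone marrow cells of 2 stages and 3 genotypes, 3 libraries in each of the 6 groups. The genotypes were wild type (Ikzf3+/+, WT), heterozygous (Ikzf3+/m, het) and homozygous (Ikzf3m/m, homo). Both stages were sorted as B220+, AA4.1+ and IgM-. Pre-pro B cells, the earlier stage, were CD43+ without CD24, and pre-B cells were CD24+ without CD43. Binding of Ikaros and of Aiolos was mapped by chromatin immunoprecipitation and sequencing (ChIP-seq) in WT and homo thymocytes and in WT and homo pre-B cells, with 1 library for each antibody, genotype and cell type. The ChIP pre-B cells were grown from B220+ IgM- marrow on Tst-4 stroma with IL-7, SCF and Flt3L, so they were not the sorted cells of the RNA libraries. The labels give no ages and do not say that the 3 libraries of a group came from separate mice, so p-values measure the spread between these libraries, which may in part be technical. The het and homo groups each held libraries of both sexes, and so of more than 1 mouse.

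Ikaros family proteins bind DNA through zinc fingers near the N terminus and pair with themselves and with each other through zinc fingers at the C terminus. Ikaros is needed from the first steps of lymphoid development, Aiolos appears later in the B lineage, and Helios and Eos are best known from T cells, regulatory T cells among them. Pegasus is the most divergent and the most widely expressed member. Ikaros, Aiolos and Helios recognise sites with the core GGGAA and act largely with the NuRD chromatin complex, and a family member with an altered DNA-binding region can still pair with the others.

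The RefSeq promoter table (build GRCm38.p6) held entries for 2 of the 5 members, 2 for Ikzf1 and 1 for Ikzf5. The 250 bases before each listed start are shown because Ikaros peaks, described further on, lay over 2 of these 3 entries. All are written 5′ to 3′ on the gene's strand. Capitals mark GGGAA or its complement TTCCC.
Ikzf1, first listed start, chr11:11685675-11685924, plus strand: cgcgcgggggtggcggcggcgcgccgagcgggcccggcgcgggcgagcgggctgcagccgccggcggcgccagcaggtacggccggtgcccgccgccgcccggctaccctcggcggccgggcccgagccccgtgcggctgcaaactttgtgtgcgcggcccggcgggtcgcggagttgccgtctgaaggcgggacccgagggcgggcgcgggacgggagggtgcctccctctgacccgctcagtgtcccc
Ikzf1, second listed start, chr11:11689927-11690176, plus strand: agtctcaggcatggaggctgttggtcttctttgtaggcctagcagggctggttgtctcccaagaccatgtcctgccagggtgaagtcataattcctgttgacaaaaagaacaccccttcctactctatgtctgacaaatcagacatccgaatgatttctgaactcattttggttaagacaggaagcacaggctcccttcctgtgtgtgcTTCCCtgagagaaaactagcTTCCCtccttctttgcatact
Ikzf5, chr7:131410479-131410728, minus strand: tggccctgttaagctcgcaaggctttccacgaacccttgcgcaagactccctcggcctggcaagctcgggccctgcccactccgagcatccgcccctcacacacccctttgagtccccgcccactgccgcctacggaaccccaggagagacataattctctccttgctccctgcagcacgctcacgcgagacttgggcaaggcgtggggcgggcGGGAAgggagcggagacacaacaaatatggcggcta
The first Ikzf1 promoter, with 81.3% G and C over its 300-base entry, had no GGGAA on either strand. The second had 2 matches and the Ikzf5 promoter 1. Over all 32851 entries of 300 bases, 62.7% held at least 1 match and 27.1% at least 2. The longer TGGGAA (complement TTCCCA), which contains GGGAA, was in none of the 3 and in 25.6% of all entries. A match describes the letters only.

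Gene counts per library ran from 1888871 (homo pre-B replicate 3) to 9048055. Levels are CPM, counts divided by the TMM-scaled library size, and, since gene lengths were not applied, they are compared between groups and not between genes. In pre-pro B cells the homo libraries held 8592557 to 9048055 gene counts and the WT libraries 5443344 to 6492192, so depth moved with genotype. The WT libraries all came from XX mice by their sex-linked transcripts, while 1 het and 2 homo libraries of each stage came from XY mice. Summed B lineage markers (8 of 8 detected in every group) ran from 1055 to 1170 CPM in WT pre-pro B cells and from 2320 to 2454 in WT pre-B cells. Ptprc, which all leukocytes express, made up most of the first sum, with a mean of 864.6 CPM against 511 in pre-B cells, while Ebf1 had means of 44.2 and 632.9. The pre-pro B gate also held markers of other cells. Summed plasmacytoid dendritic cell markers (8 of 8 detected) ran from 4679 to 5358 CPM in WT, 3745 to 5794 in het and 3569 to 3773 in homo. In pre-B libraries the sum fell to between 945.8 and 1174 CPM, and the markers fell unequally. Between the WT stages the means of Siglech went from 695.1 to 0.327 CPM, Runx2 from 1157 to 0.808 and Ly6c2 from 118.5 to 1.00. Bst2 went from 201.6 to 18.1 and Cox6a2 from 105.1 to 7.70. Spib (592.2 to 566.8), Tcf4 (1206 to 308.7) and Irf8 (926.5 to 236.1) made up most of the pre-B sum. NK and innate lymphoid markers (9 of 9) summed to 33.8 to 45.9 CPM in WT pre-pro B cells, 110.2 to 207.8 in those of het mice and 178.7 to 312.7 in those of homo mice. Myeloid markers (7 of 7) ran from 80.5 to 92.0, 75.0 to 147.1 and 170.8 to 221.3 CPM, and T lineage markers (6 of 8 listed in the files) from 613.8 to 700.1, 450.4 to 712.0 and 433.0 to 482.2 CPM. The T lineage sum was almost all Cd4 and Cd8a, with means of 523.5 and 135.5 CPM in WT, while the T cell receptor complex genes Cd3e, Cd3d and Cd3g were at 0.646, 1.06 and 0.770 CPM and Bcl11b at 0.166. In WT pre-B cells Ncr1, Klrk1, Gzma, Gzmb and Eomes, the myeloid genes Elane, Ctsg and Cebpa, and Cd3e, Cd3g and Cd8a had no counts. Hbb-bt and Hba-a1 had no counts in any group, and summed erythroid markers stayed at or under 2.404 CPM. In pre-B libraries the NK sum ran from 9.975 to 28.2 CPM, the myeloid sum from 1.162 to 6.637 and the T lineage sum from 0 to 4.193. The antigens used for the sort (4 of 5 listed in the files) summed to 1337 to 1689 CPM over the pre-pro B libraries, and to 1592 to 2939 over the pre-B libraries. This sum pools antigens gated in opposite directions. Between the WT stages Spn, encoding CD43, had means of 429.7 and 158.9 CPM, and Cd24a, encoding CD24, of 73.7 and 330.2. Spn was at 74.8 CPM in het and 75.7 in homo pre-B cells. Fewer cells of a type and less RNA per cell cannot be told apart in these bulk libraries, and the part of other cell types in the differences below was not tested.

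The RNAs of Aiolos and Helios moved in opposite directions between the stages. From pre-pro B to pre-B cells Ikzf3 rose 34.1-fold and Ikzf2 fell 52.4-fold in WT, and both moved the same way in het and homo. Ikzf5 rose 1.34-fold in WT and 1.48-fold in het, Ikzf1 rose in het and homo, and Ikzf4 was barely detected anywhere. Of the 4 members tested, 3 were called in WT (edgeR, adjusted p under 0.05), 4 in het and 4 in homo, beside 64.3% (31.0% higher and 33.3% lower), 68.1% and 69.1% of the 12440 genes tested. Most genes were thus called in these contrasts, and a call alone does not set a member apart.

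**Figure D1:**
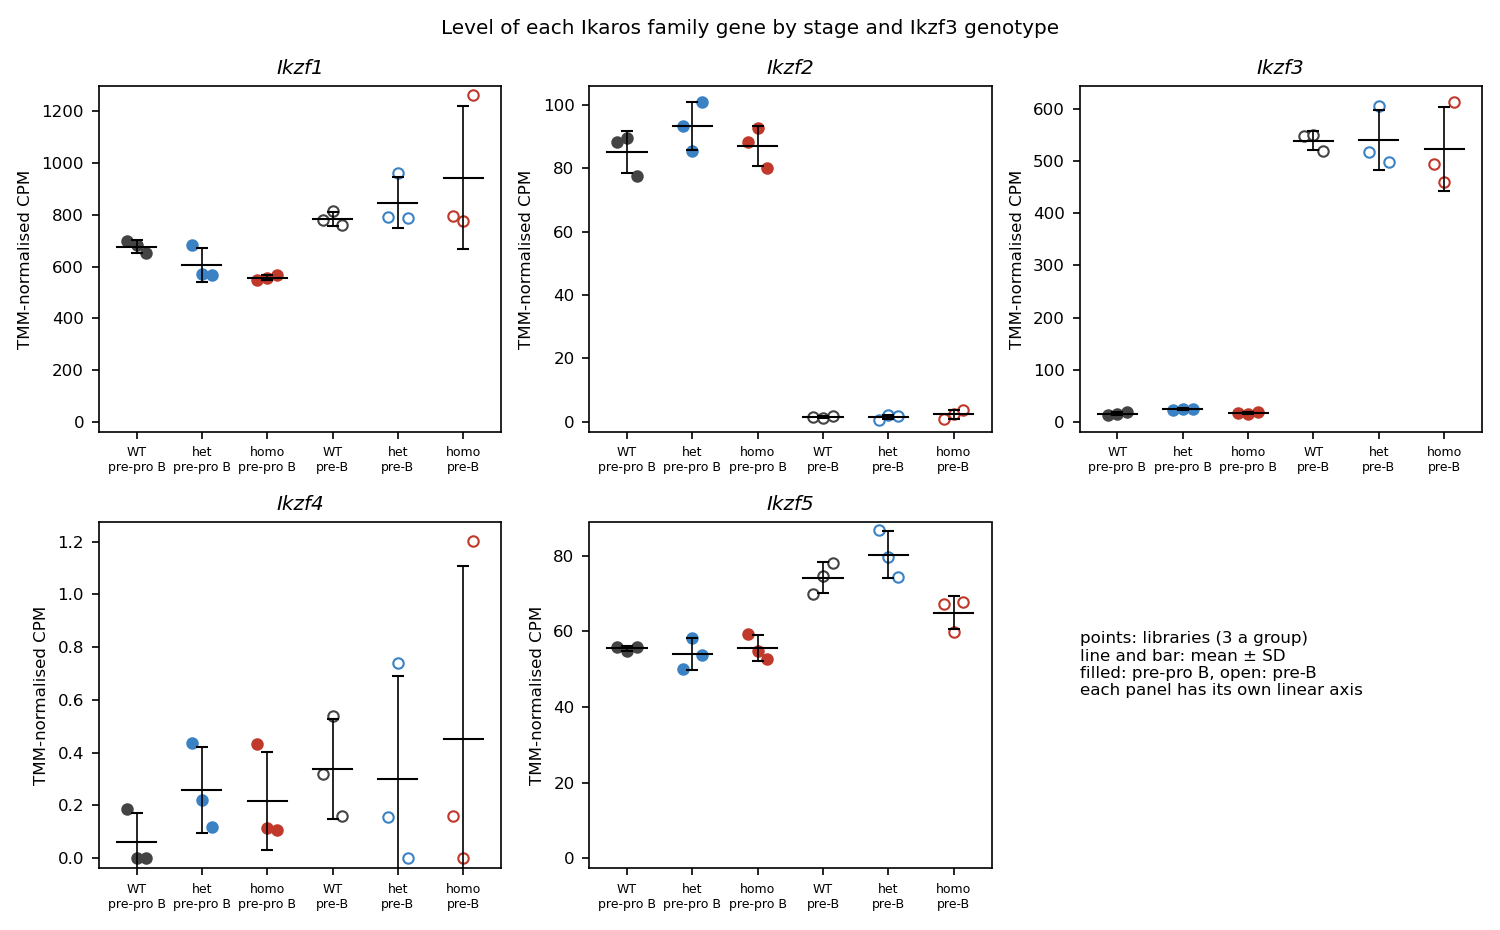
TMM-normalised CPM of each member in each library (points), with mean and SD of 3 libraries per group, filled for pre-pro B and open for pre-B cells, on a linear axis of its own in each panel. Ikzf3 rises and Ikzf2 falls between the stages in every genotype with no overlap, as 69.5% to 79.8% of genes do not overlap. Ikzf1 and Ikzf5 differ by 1.69-fold or less, and Ikzf4 stays at or under 1.20 CPM.

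Ikzf3, the gene that carries the substitution, lies at chr11:98464610-98546031. Among pre-pro B cells the WT libraries read 13.5, 15.3 and 18.4 CPM, those of het mice 21.9, 24.4 and 25.1, and those of homo mice 15.9, 14.9 and 18.0. Among pre-B cells the WT libraries read 548, 551 and 519 CPM, those of het mice 518, 606 and 498, and those of homo mice 494, 460 and 614. The 9 libraries of each stage did not overlap those of the other, and within pre-B cells the genotypes overlapped. Stages also did not overlap for 79.8%, 69.5% and 72.7% of genes within WT, het and homo. In pre-pro B cells every het library stood above every WT and every homo library. The stage difference was log2 5.09 ± 0.14 (SE) in WT (edgeR adjusted p = 4.26e-15), 4.50 ± 0.14 in het (1.09e-14) and 5.0 ± 0.14 in homo (6.09e-15).

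In het pre-pro B cells Ikzf3 went from 15.7 ± 2.45 (SD, n = 3) in WT to 23.8 ± 1.70 CPM, or log2 0.59 ± 0.13. This rise missed the threshold (edgeR adjusted p = 0.0558, nominal 95% interval 0.34 to 0.84). No member was called in this contrast, where 0.558% of 12188 genes were, and 1 member, Ikzf3, had an unadjusted p under 0.05 beside 2505 genes. It was called by DESeq2 (adjusted p = 0.0180), without a filter on low counts (0.0234), in a fit of all 18 libraries (0.0459), without WT replicate 3 (0.0156) and without het replicate 1 (0.00892). It was not called in 8 of the 14 alternatives, library size as a covariate (0.111) and a sex term (0.136) among them. Its adjusted p lay between 0.00892 and 0.210 over the alternatives. The homo level, 16.3 ± 1.57 CPM, was log2 0.03 ± 0.13 from WT (adjusted p = 0.897, nominal 95% interval -0.22 to 0.28). The het estimate of 0.59 lay outside this nominal interval. Homo against het gave log2 -0.56 ± 0.12 (adjusted p = 0.154, interval -0.80 to -0.32). This contrast called 0.0164% of genes and no member, with 1470 genes and Ikzf3 among them at an unadjusted p under 0.05. The het and homo contrasts share the WT libraries. Groups did not overlap for Ikzf3 in het against WT nor in homo against het, as for 21.7% and 17.1% of the genes tested.

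In pre-B cells, where Ikzf3 is high, its level was 539 ± 17.7, 541 ± 57.7 and 523 ± 80.9 CPM in WT, het and homo. The differences from WT were log2 -0.0044 ± 0.14 in het (edgeR adjusted p = 0.992, interval -0.27 to 0.27) and -0.05 ± 0.14 in homo (0.853, interval -0.32 to 0.22). With library size as a covariate the homo difference was -0.17 ± 0.06 (adjusted p = 0.0371). The missense change leaves a transcript that these counts do not tell from the WT one, so the genotype labels were not checked by Ikzf3 counts. The difference of the het effect between the stages was log2 -0.60 ± 0.18 (interaction, edgeR adjusted p = 0.0698) and not called. With library size as a covariate it was -0.67 ± 0.15 (0.00805), and it was also called with a sex term (0.0376), in a fit of only the 4 groups concerned (0.0300), without WT pre-pro B replicate 3 (0.0359) and without het pre-B replicate 2 (0.0382). In 15 of the 20 alternatives the het interaction was not called. The homo interaction was log2 -0.09 ± 0.19 (adjusted p = 0.802).

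Ikzf2, encoding Helios, lies at chr1:69531207-69687351. Its pre-pro B level was 88.2, 89.6 and 77.5 CPM in the WT libraries, 93.4, 85.5 and 101 in those of het mice, and 88.3, 92.7 and 80.2 in those of homo mice. Raw counts in pre-B cells were 10, 7 and 12 for WT, then 4, 8 and 12 for het, then 6, 16 and 6 for homo, or 1.60 ± 0.340, 1.45 ± 0.722 and 2.34 ± 1.33 CPM. All 18 libraries kept to their stage with no overlap, and all genotypes overlapped within each stage. Within WT, het and homo, 79.8%, 69.5% and 72.7% of genes likewise did not overlap between the stages. The stage difference was log2 -5.71 ± 0.24 in WT (edgeR adjusted p = 5.98e-13), -6.05 ± 0.24 in het (4.45e-13) and -5.46 ± 0.25 in homo (2.02e-12). Summed markers of plasmacytoid dendritic, NK and myeloid cells, and Cd4 and Cd8a, were also lower in pre-B cells, as given above. No genotype contrast of Ikzf2 was called. In pre-pro B cells the difference from WT was log2 0.12 ± 0.08 in het (adjusted p = 0.420) and 0.02 ± 0.08 in homo (0.874, interval -0.13 to 0.18). At 4 to 16 counts a library, the pre-B intervals were wide, from log2 -0.70 to 1.34 in homo against WT.

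Ikzf1, encoding Ikaros, lies at chr11:11684962-11772930. In pre-pro B cells it read 699, 683 and 651 CPM in the WT libraries, 683, 572 and 567 in those of het mice, and 547, 556 and 566 in those of homo mice. Every homo library stood below every WT and every het library, while het replicate 1 stood within the WT range. The highest homo library, at 566.5 CPM, was only just below the lowest het library, at 567.1. In homo against het the groups did not overlap for 17.1% of genes. Homo against WT gave log2 -0.30 ± 0.08 (edgeR adjusted p = 0.0236), the only call of a member in a genotype contrast. Here 22.4% of 12188 genes were called, 12.0% as higher and 10.4% as lower, and the groups did not overlap for 46.5%, so 1 of 4 members is near the background. Het against WT gave log2 -0.17 ± 0.08 (adjusted p = 0.267), and homo against het -0.13 ± 0.08 (0.532).

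Ikzf1 values moved with depth. The 5 pre-pro B libraries with 8395882 or more gene counts held 4810 to 5202 Ikzf1 counts, and the 4 with fewer held 3123 to 4179. Actb, an abundant control, kept to 2335 to 2650 counts over all 9, so its CPM was lower in the deeper libraries. The 4 controls Actb, B2m, Eef1a1 and Gapdh had a median log2 difference of -0.53 in homo against WT, with 0 called and a median of 0.01 over all genes tested. Gapdh was not abundant, with 30 to 60 counts over these 9 libraries. With library size as a covariate the Ikzf1 difference was -0.12 ± 0.05 (adjusted p = 0.178), and with a sex term -0.25 ± 0.10 (0.144). The call was also lost in a fit of all 18 libraries (0.289) and when WT replicate 1 (0.119), WT replicate 2 (0.0954) or any of homo replicates 1 (0.0715), 2 (0.0718) and 3 (0.0603) was left out. Without het replicate 1, the shallowest pre-pro B library, het against WT was called at log2 -0.27 ± 0.05 (0.00684).

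**Figure D2:**
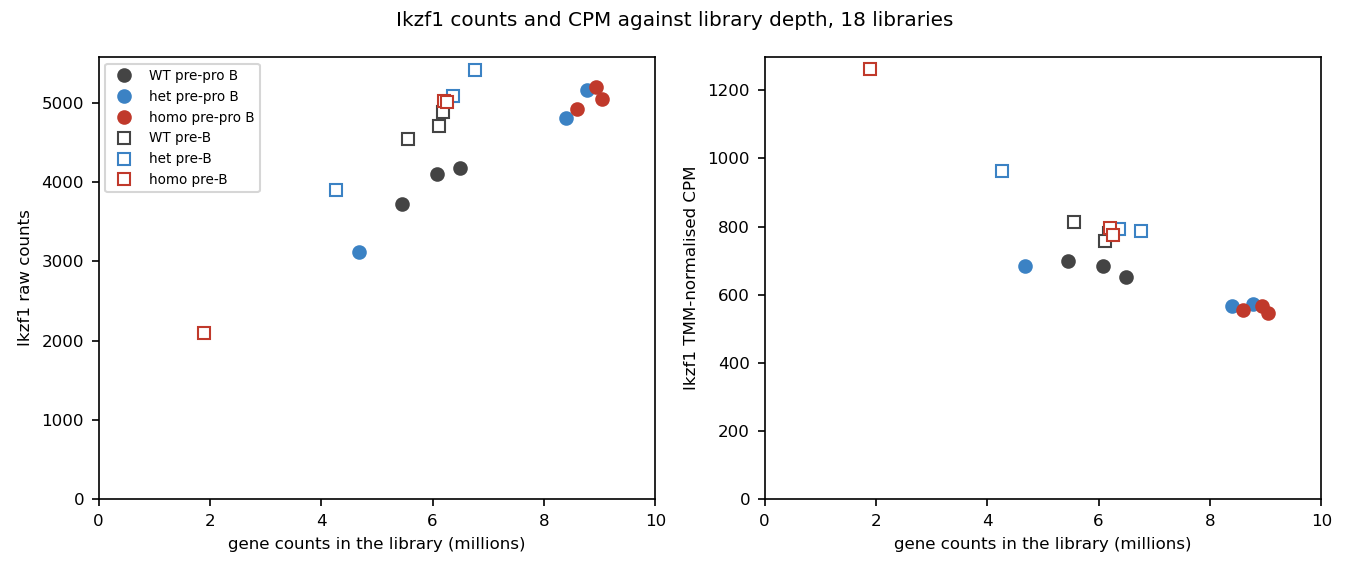
Raw Ikzf1 counts (left) and TMM-normalised Ikzf1 CPM (right) against the gene counts of the library, on linear axes, 1 point per library, filled circles for pre-pro B and open squares for pre-B cells. The deepest pre-pro B libraries have the lowest CPM, and homo pre-B replicate 3, with 1888871 gene counts, has the highest at 1262 CPM.

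The pre-B libraries of WT mice read 782, 814 and 759 CPM of Ikzf1, those of het mice 792, 962 and 786, and those of homo mice 796, 774 and 1262. The genotypes overlapped, and the 962 and 1262 CPM came from the shallowest library of each group, with 4265056 and 1888871 gene counts. Homo against WT gave log2 0.27 ± 0.19 (edgeR adjusted p = 0.392), and 0.0004 ± 0.11 without homo replicate 3 (0.998). The 4 abundance controls had a median of 0.565 in the same contrast, beside 0.02 over all genes. Among them Gapdh was not abundant, at 9.88 to 12.6 CPM in homo and 6.55 to 7.34 in WT. Its difference was thus not confined to homo replicate 3. Of the 4 members tested, none was called in het against WT (6.18% of 11411 genes called, 2.8% higher and 3.38% lower, with 2146 genes and 0 members at an unadjusted p under 0.05), in homo against WT (15.9%, 7.42% higher and 8.45% lower, 3282 and 0) or in homo against het (1.89%, 0.806% higher and 1.09% lower, 1436 and 1, which was Ikzf5). In het against WT pre-B cells the groups overlapped for all 4, while 33.3% of genes did not overlap.

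The stage difference of Ikzf1 was log2 0.21 ± 0.15 in WT (edgeR adjusted p = 0.220), 0.48 ± 0.15 in het (0.00853) and 0.76 ± 0.15 in homo (0.000232). In each genotype the libraries of the stages did not overlap, as for 79.8%, 69.5% and 72.7% of genes. The WT difference was called in a fit of the WT groups alone (0.22 ± 0.04, 0.000227) and with library size as a covariate (0.21 ± 0.05, 0.000705). The homo difference was 0.50 ± 0.10 without homo pre-B replicate 3 (0.000145) and 0.31 ± 0.06 with the covariate (0.000213). All 4 abundance controls rose between the homo stages, with a median of 0.93. The homo effect on Ikzf1 did not pass the interaction test (log2 0.55 ± 0.21, adjusted p = 0.0952), and it was 0.28 ± 0.13 without homo pre-B replicate 3 (0.168). It was 0.10 ± 0.08 with the covariate (0.437), and it was called without homo pre-B replicate 1 (0.0479) or 2 (0.0326). Interaction tests called 5.65% of genes for het and 14.5% for homo, and none of the members. At an unadjusted p under 0.05 there were 2202 genes with Ikzf3 for het and 3423 with Ikzf1 for homo.

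**Figure D3:**
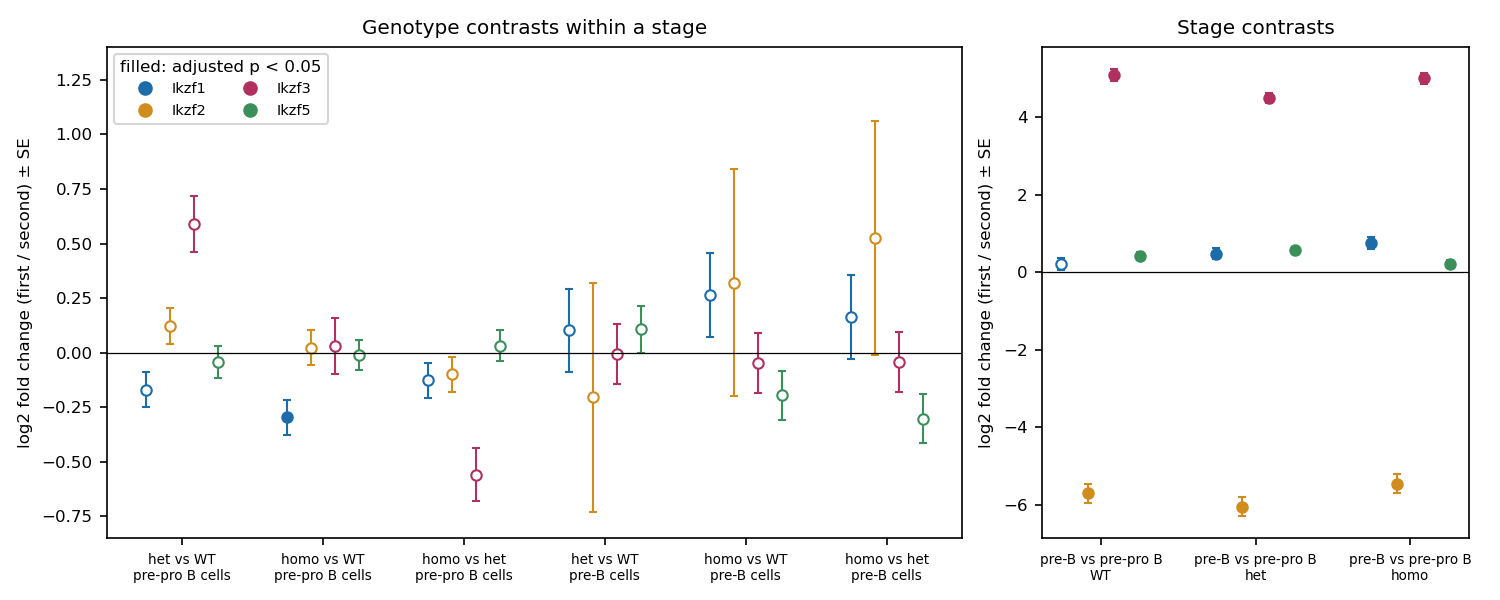
Log2 fold change ± SE of the 4 members tested in the genotype contrasts (left) and stage contrasts (right) of edgeR, filled where the adjusted p was under 0.05. Ikzf1 in homo against WT pre-pro B cells is the only filled point on the left, while 11 of the 12 points on the right are filled.

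Ikzf5, encoding Pegasus, lies at chr7:131388649-131410518 on the minus strand. In pre-pro B cells the WT libraries read 56.0, 54.8 and 55.9 CPM, those of het mice 50.1, 58.3 and 53.6, and those of homo mice 59.3, 54.7 and 52.7, with all genotypes overlapping. In pre-B cells the WT libraries read 70.0, 74.7 and 78.0 CPM, those of het mice 87.0, 79.7 and 74.4, and those of homo mice 67.2, 59.9 and 67.9. All homo pre-B libraries stood below all WT and all het libraries. Groups that did not overlap, in either direction, were found for 42.6% and 15.5% of genes in these contrasts. The differences were log2 -0.19 ± 0.11 from WT (edgeR adjusted p = 0.281) and -0.30 ± 0.11 from het (0.269), neither called. With library size as a covariate homo against het was -0.32 ± 0.09 (0.0398). The stage difference was log2 0.42 ± 0.09 in WT (0.000675), 0.57 ± 0.09 in het (3.03e-05) and 0.22 ± 0.09 in homo (0.0454). The homo call was lost with DESeq2 (0.0630), with library size as a covariate (0.0910), without a filter on low counts (0.179) and in a fit of the homo groups alone (0.0969). It was also lost without homo pre-pro B replicate 2 (0.122) or 3 (0.166) or homo pre-B replicate 1 (0.165) or 3 (0.0755). Pstk overlaps Ikzf5 in the annotation and no source used here says whether counting used strand, so reads of the shared stretch are uncertain.

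Ikzf4, encoding Eos, lies at chr10:128630839-128669671 and was at the limit of detection. The raw counts of the WT libraries were 1, 0 and 0 in pre-pro B and 2, 3 and 1 in pre-B cells. Those of het libraries were 2, 2 and 1, and then 1, 3 and 0, and those of homo libraries 4, 1 and 1, and then 1, 0 and 2. A count of 0 in a library allows up to 3 counts, which is 0.325 to 1.80 CPM at these depths and covers counting error only. Only homo pre-pro B replicate 1, with 4 counts, was above that floor. Ikzf4 did not pass the filter on low counts in any fit, and no fold change is given.

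In rank of levels, Ikzf3 was lowest in WT pre-pro B cells, next in homo pre-pro B cells, which overlapped it, then in het pre-pro B cells, and highest in the 3 pre-B groups, which overlapped each other. Ikzf2 ran the other way, with the 3 pre-B groups lowest and the 3 pre-pro B groups highest, all overlapping within a stage. Ikzf1 rose from homo through het to WT pre-pro B cells, of which homo and het only just did not overlap (566.5 against 567.1 CPM). It rose further to WT pre-B cells, which did not overlap WT pre-pro B cells. The WT, het and homo pre-B groups followed in that order and overlapped. Ikzf5 put the 3 pre-pro B groups lowest and overlapping, then homo pre-B cells apart from both neighbours, and then the WT and het pre-B groups, which overlapped. The Ikzf4 groups overlapped throughout.

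The counts of Ikzf3 were then set against those of Ikzf1 in the same library, a ratio that needs no scaling factor between libraries. It is not free of depth, because Ikzf1 counts, like those of Actb, did not rise in proportion to the library total, as given above. For each 100 Ikzf1 counts, WT pre-pro B libraries had 1.93, 2.24 and 2.82 Ikzf3 counts, het libraries 3.20, 4.27 and 4.43, and homo libraries 2.91, 2.68 and 3.17. WT pre-B libraries had 70.1, 67.7 and 68.4, het libraries 65.4, 63.0 and 63.3, and homo libraries 62.0, 59.5 and 48.7. The ratio was thus higher in het than in both other genotypes at the earlier stage, and at the later stage WT, het and homo followed each other downward with no overlap. Gene length cancels in comparisons between groups but not in the ratio itself, so the ratio is no measure of relative transcript number.

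On the log2 scale het exceeded WT by 0.77 in pre-pro B cells, and homo exceeded WT by 0.34 with overlap. In pre-B cells het was below WT by a log2 difference of -0.11, homo below WT by -0.29 and homo below het by -0.18. Without homo replicate 3, the last 2 were -0.18 and -0.07. Of the 9 ratio comparisons, homo against WT in pre-pro B cells had a two-sided exact permutation p of 0.2 and the other 8 had p = 0.1, the smallest that 3 against 3 libraries allows (adjusted over the 9, 0.2 and 0.112). The stage differences of the ratio were log2 4.90 in WT, 4.02 in het and 4.28 in homo. The log2 genotype difference in pre-B minus that in pre-pro B cells was, with genotype permuted within each stage, -0.87 for het (exact p = 0.005, the smallest possible, adjusted 0.01) and -0.62 for homo (exact p = 0.01, adjusted 0.01). Both use the same WT libraries. This test was added after the ratios had been seen, so its p restates a pattern already in view, and the edgeR interactions of Ikzf3 and Ikzf1 given above were not called.

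Depth moved with this ratio as well. Within WT pre-pro B cells the ratios of 1.93, 2.24 and 2.82 came from libraries of 5443344, 6080563 and 6492192 gene counts. Het replicate 1, with 4683715 gene counts, was the lowest het library at 3.20. In pre-B cells the lowest ratio, 48.7, came from the library with 1888871 gene counts. The other 2 homo libraries, with 6212714 and 6257527, read 62.0 and 59.5. The part of depth in these differences was not tested.

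**Figure D4:**
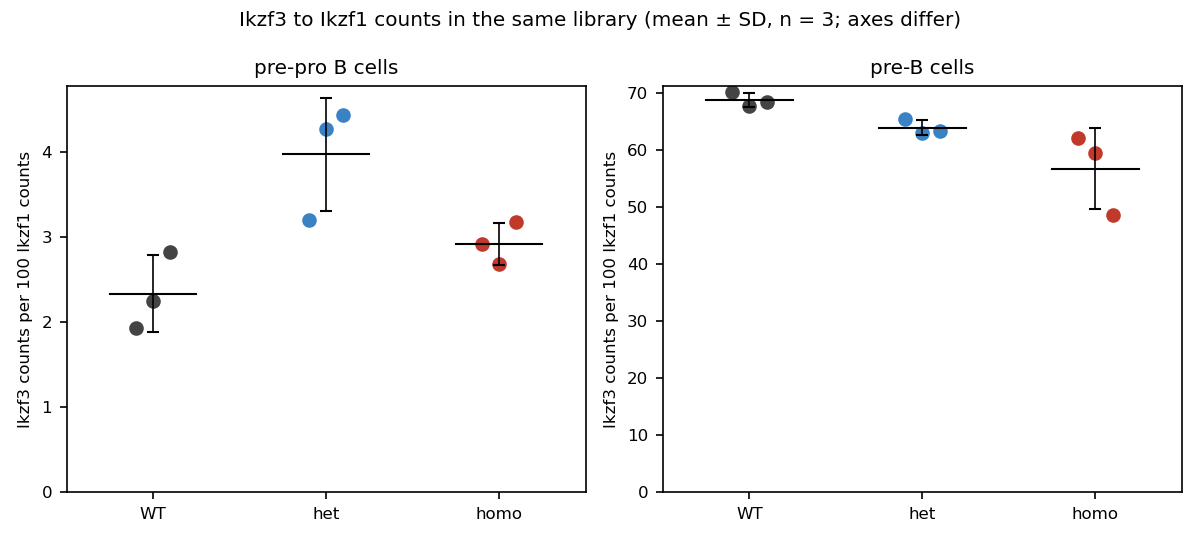
Ikzf3 counts per 100 Ikzf1 counts in each library, with mean and SD of 3 libraries per genotype, for pre-pro B (left) and pre-B cells (right), on linear axes of different range. Het libraries are highest in pre-pro B cells, and WT, het and homo descend without overlap in pre-B cells.

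The partners through which Ikaros proteins act were read from lists chosen for this purpose, with earlier results of these data known. Between the WT stages 31.0% of all genes tested were called higher and 33.3% lower, which is the background for each list. Of 13 NuRD genes, 7 rose and 3 fell between the stages in WT (median log2 0.25, beside -0.01 over all genes tested). Those with the largest rises were the GATA-type subunit gene Gatad2b (0.62 ± 0.10, edgeR adjusted p = 1.88e-05), the histone chaperone gene Rbbp4 (0.61) and the deacetylase gene Hdac2 (0.61). Those that fell were Mta3 (-0.87 ± 0.10, 4.47e-07), Mbd3 (-0.42) and Mta1 (-0.33). In homo against WT pre-pro B cells, the remodeller gene Chd3 rose (0.33 ± 0.10, 0.0426) and Mbd3 fell (-0.23). That is 1 rise and 1 fall among 13, beside 12.0% of all genes higher and 10.4% lower (median of the list 0.002, beside 0.01). In homo pre-B cells Mta1 rose (0.54 ± 0.12, 0.0142), beside 7.42% of all genes higher and 8.45% lower (median 0.14, beside 0.02). The 4 abundance controls had a median of 0.565 in that pre-B contrast, and the part of depth was not tested.

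Of 8 genes of other repressors and remodellers, 5 rose and 1 fell between the WT stages (median 0.50), beside 31.0% and 33.3% of all genes. The Polycomb genes Ezh2 (1.78 ± 0.24, edgeR adjusted p = 4.81e-06) and Suz12 (1.13) and the SWI/SNF ATPase gene Smarca4 (1.16) were the largest rises, and the corepressor gene Ctbp2 fell by 2.56. In homo pre-pro B cells Ctbp2 (0.70 ± 0.15, 0.00871), Ezh2 (0.48) and Suz12 (0.21) rose while Ctbp1 (-0.29) and Sin3b (-0.20) fell (median 0.06), beside 12.0% of all genes higher and 10.4% lower, and none of the 8 was called in homo pre-B cells (median 0.11). Among 6 genes of casein kinase 2 and protein phosphatase 1, which phosphorylate and dephosphorylate Ikaros, Csnk2a2 rose between the WT stages (0.39 ± 0.10, 0.00254) and none was called in homo against WT. Their medians were 0.23 for the WT stages, -0.18 for homo pre-pro B and 0.08 for homo pre-B cells. The cereblon ligase degrades Ikaros and Aiolos in the presence of certain drugs. Of its 5 genes, Cul4b (0.83) and the substrate receptor gene Crbn (0.47 ± 0.13, 0.00495) rose and Cul4a (-0.20) fell between the WT stages (median 0.12). Cul4b rose in homo pre-pro B cells (0.29, median 0.09), and none was called in homo pre-B cells (median 0.05). No gene of these 4 lists was called in het against WT or in homo against het at either stage. Of all genes, these 2 contrasts called 0.558% and 0.0164% in pre-pro B cells, and 6.18% and 1.89% in pre-B cells.

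Of 14 known target genes of Ikaros or Aiolos, Ikzf3 itself among them, 11 rose and 1 fell between the WT stages (median 1.09), beside 31.0% higher, 33.3% lower and a median of -0.01 over all genes. This list was chosen with earlier results of these data known, so its counts are a description only. After Ikzf3 the largest rises were those of the recombinase genes Rag2 (3.77 ± 0.27, edgeR adjusted p = 9.13e-10) and Rag1 (3.24 ± 0.23, 1.06e-09), and Dntt, which adds bases at V(D)J junctions, fell by 1.56. In homo pre-pro B cells Myc (1.20 ± 0.31, 0.0286) and the catenin gene Ctnnd1 (0.81) rose. The adaptor gene Blnk fell there (-0.38 ± 0.08, 0.00865), and the list median was 0.10. These 2 rises and 1 fall among 14 stood beside 12.0% of all genes higher and 10.4% lower, so the list is near the background. In homo pre-B cells Ctnnd1 (2.12 ± 0.18, 6.15e-05) and Foxo1 (0.47) rose (median 0.17), 2 of 14 beside 7.42% higher and 8.45% lower. The 4 abundance controls had medians of -0.53 in the first contrast and 0.565 in the second, and the part of depth was not tested. In het pre-B cells Ctnnd1 rose from 11.1 to 24.4 CPM (1.14 ± 0.18, 0.00573) while the surrogate light chain gene Igll1 (-0.64) and Dntt (-1.04) fell. Of all genes, 2.8% were called higher and 3.38% lower in that contrast. The same 3 genes were higher in homo than in het pre-B cells, Ctnnd1 by 0.98, Igll1 by 0.85 and Dntt by 1.12. There 0.806% of all genes were called higher and 1.09% lower. None of the 14 was called in het against WT or homo against het pre-pro B cells, where 0.558% and 0.0164% of all genes were.

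The genes most like each member over the 18 libraries, by Pearson's r of log2(CPM + 1) among 12439 other genes, are a description only, since the libraries share differences of stage and depth. For Ikzf3 they were Cpm (0.997), the end joining ligase gene Lig4 (0.996) and D930015E06Rik (0.996), and for Ikzf2 Anxa2 (0.998), Dse (0.997) and Ppm1h (0.996). For Ikzf1 they were Blnk (0.993), Eif4g2 (0.991) and Cap1 (0.991). Within pre-pro B cells (9 libraries) those of Ikzf1 were Sfpq (0.997), Rbm39 (0.996) and Cap1 (0.995), and within pre-B cells H2-D1 (0.998), Serinc3 (0.997) and Ezh2 (0.997). For Ikzf5 they were Zfp322a (0.955), Airn (0.948) and Prm1 (0.943).

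Ikaros peaks lay at the Ikaros family loci in all 4 Ikaros lists. Within a gene or 20 kb on either side there were 3 peaks at 2 loci in WT pre-B cells, 6 at 3 loci in homo pre-B cells, 8 at 3 loci in WT thymocytes and 15 at all 5 loci in homo thymocytes. Of 23393 genes with a position, 15.0%, 30.7%, 15.3% and 36.4% had such a peak, and the lists held 3683, 8609, 3572 and 8221 peaks in all, so list length moved with the counts. With 1 library a group, no difference between lists has a replicate check. Merged over the lists, the peaks formed 15 regions. All 15 were in the homo thymocyte list, 3 in all 4 lists, and 7 in a homo list and in no WT list, and none was in a WT list alone.

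**Figure D5:**
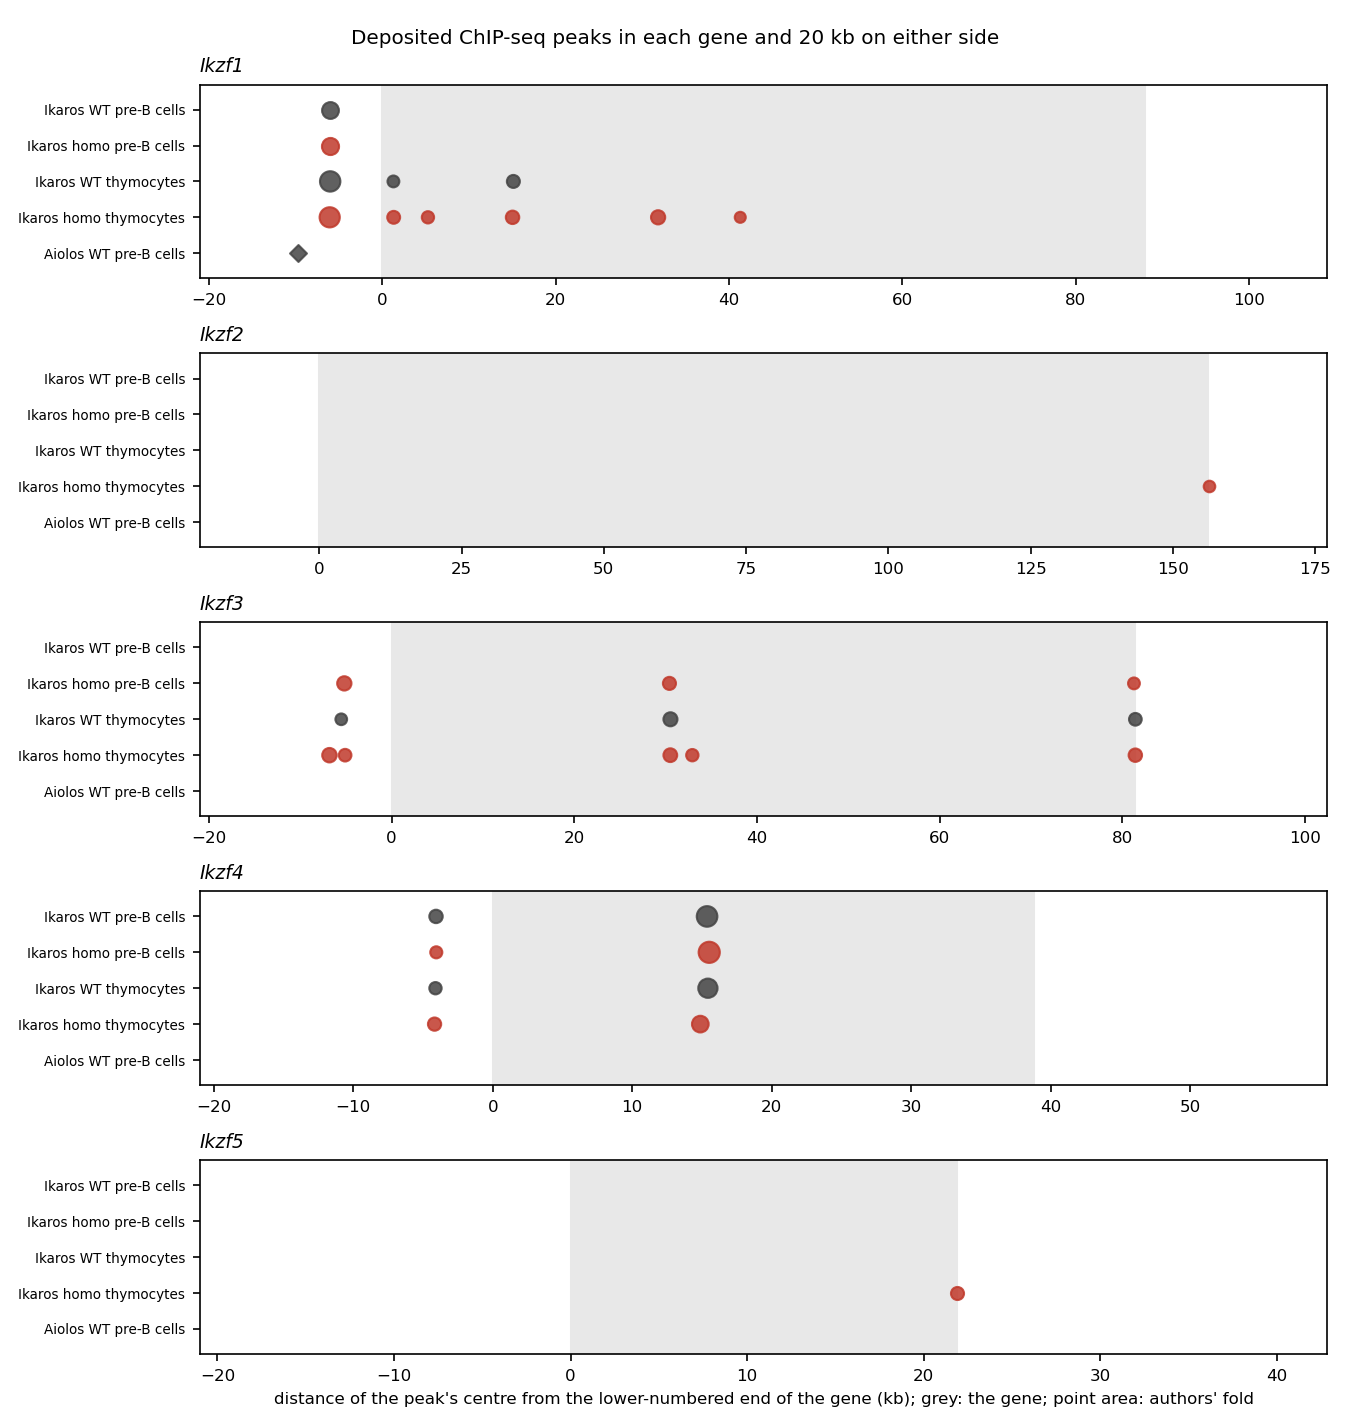
Centres of the deposited peaks in each gene (grey) and 20 kb on either side, as distance in kb from the lower-numbered end of the gene, 1 row per list with Ikaros peaks as circles, Aiolos peaks as diamonds and area for the authors' fold. The upstream Ikzf1 peak and both Ikzf4 peaks recur in all 4 Ikaros lists, and the Ikzf2 and Ikzf5 peaks stand in homo thymocytes only.

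The 3 regions found in all 4 lists lay at Ikzf1 and Ikzf4. The Ikzf1 region, chr11:11678601-11679311 (mm10), lay about 6 kb outside the gene, 6.91 to 7.0 kb from the nearest listed start, in the predicted gene Gm11999. Its fold, the authors' own ratio of signal to background, was 7.25 in WT pre-B cells, 7.50 in homo pre-B cells, 10.65 in WT thymocytes and 10.45 in homo thymocytes. The region inside Ikzf4, chr10:128644659-128647041, overlapped the predicted gene Gm26876 and had folds of 10.89, 11.49, 9.51 and 7.13 in the same order, among the top 11.4% by fold of each list. The other Ikzf4 region, chr10:128626473-128626915, lay on the side of the ribosomal protein gene Rps26, with folds of 4.61, 3.74, 3.90 and 4.49. Ikzf4 thus had an Ikaros peak in each list although its RNA was at the limit of detection in the B lineage cells sequenced.

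Ikzf3 had no Ikaros peak in WT pre-B cells, 3 in homo pre-B cells, 3 in WT thymocytes and 5 in homo thymocytes. A region beside the gene, chr11:98458826-98459806, had folds of 5.24 in homo pre-B cells, 3.49 in WT thymocytes and 4.09 in homo thymocytes. One inside the gene, chr11:98494837-98495389, had 4.38, 5.04 and 4.85, and one at its higher-numbered end, chr11:98545756-98546179, had 3.59, 4.14 and 4.61. The peak of highest fold at this locus, 5.36 at chr11:98457506-98458089, was in the homo thymocyte list and overlapped Mien1. The position table gives no strand, so which end of Ikzf3 holds its start is not stated here.

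Inside Ikzf1 the peaks were listed in thymocytes and not in pre-B cells. Near the first listed start, chr11:11686127-11686488 had folds of 3.59 in WT and 4.25 in homo, with its centre 0.35 to 0.38 kb from the start and outside the first promoter printed above. The second promoter printed above, with its pair of TTCCC matches, lay under a peak of the homo thymocyte list, chr11:11689974-11690541, fold 3.87 and −log10 q 4.23. The higher folds inside the gene were 5.16 in homo thymocytes at chr11:11716631-11716947, and 4.33 in WT and 4.62 in homo thymocytes at chr11:11699886-11700308. The Ikzf5 promoter printed above, with 1 GGGAA, lay under the only peak at that locus, chr7:131410412-131410689, fold 4.37 and −log10 q 4.55 in homo thymocytes, which also reached the adjoining gene Acadsb. The only Ikzf2 peak, chr1:69687163-69687939, spanned the higher-numbered end of the gene in homo thymocytes (fold 3.43, −log10 q 2.08).

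Overlap was counted from 1 shared base. In pre-B cells all 3 WT peaks at these loci were also in the homo list, against 94.7% of the whole WT list, and 3 of 6 homo peaks were in the WT list, against 40.4% of the homo list. In thymocytes all 8 WT peaks were in the homo list (78.9% of the whole list) and 8 of 15 homo peaks in the WT list (34.1%). At a deposited −log10 q of at least 5, the counts at the 5 loci were 3 in both WT and homo pre-B cells, 4 in WT thymocytes and 8 in homo thymocytes. The pre-B totals were thus equal at that threshold, but the peaks were not all the same. Of the 3 WT peaks, 2 overlapped a homo peak there. The homo peak beside Ikzf3 (−log10 q 7.64), absent from the WT list, stayed. The homo peak on the Rps26 side of Ikzf4 dropped out, with −log10 q 3.0 against 5.57 in WT.

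Aiolos peaks at the family loci came to 1 in all. It was in the WT pre-B list of 431 peaks, at chr11:11675103-11675400, within Gm11999 and 9.71 kb from the Ikzf1 gene. Its fold of 3.66 ranked 372 of 431, and its −log10 q was 1.51, so it was among the weakest of its list. The Aiolos lists of homo pre-B cells (24 peaks), WT thymocytes (25) and homo thymocytes (184) had no peak at any of the 5 loci. In these 4 lists 1.11%, 0.0727%, 0.0556% and 0.654% of genes had a peak within the same distance. With 5 loci and 1 library a list, counts of 0 and 1 are given as a description only.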

How the data were processed

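The authors deposited, for each of 18 RNA libraries, raw read counts per gene symbol. The 5 entries that name no gene were left out. Of the table totals, 29.85% to 40.15% were reads outside genes, and ambiguous reads made up 0.73% to 0.8824%. The 8 deposited broad peak lists give each peak a score, a ratio (fold of signal over background) and its p-value and q-value as −log10. The score was not used. Per the submitters' processing notes, STAR 2.7.0, HISAT2 2.1.0, MACS2 2.1.1 and build mm10 were used. Their roles, the thresholds and the controls are not given in the sources used here. The 4 inputs were not analysed here.

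Counts were fitted with edgeR 4.0.16 under R 4.3.3 (low counts removed by filterByExpr, TMM scaling, robust quasi-likelihood test, Benjamini-Hochberg adjustment over all genes tested). Each stage was fitted with its 9 libraries (12188 and 11411 genes), and stage and interaction contrasts with all 18 (12440 genes). Ratios of Ikzf3 to Ikzf1 counts were compared by exact permutation tests. All intervals are nominal 95% limits, set from the SE by the normal distribution, and can be narrower than the edgeR test allows. For Ikzf1 in het against WT pre-pro B cells the interval was log2 -0.328 to -0.009. It excluded 0 although the unadjusted edgeR p was 0.0603. Of these steps, only the edgeR contrast of homo against WT in each stage was tried on simulated data. The stage and interaction contrasts, the ratio tests and the peak steps were not. No 2 libraries of a group agreed within sampling noise (chi-square per degree of freedom 1.44 to 20.2).

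The alternatives were DESeq2 1.42.0, other filters, a library size or sex covariate, a replicate block, other sample sets, leaving out each library, and other peak windows and thresholds. Leaving out libraries for the stage difference of the ratio was chosen after seeing the data. Gene positions (95.6% of symbols matched, all 5 members) and promoters came from RefSeq tables of GRCm38.p6, the mm10 assembly. Peaks were assigned within 20 kb of a gene. All members are named. From the lists, up to 3 called genes a direction with the largest fold change are named for homo against WT and for the WT stages, and the Igll1, Dntt and Ctnnd1 values in the het contrasts were chosen after they were seen. The 3 most alike genes per member are named, as are peaks over a start, the 3 of highest fold per locus and every Aiolos peak. Peaks in several lists are also named, after their values were seen. The members and the gene lists were chosen with earlier results of these data known.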

Additional observations from a re-analysis of the deposited data

Results flagged for a closer look

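The genotype difference of the count ratio of Ikzf3 to Ikzf1 is listed because a permutation test of its change between the stages passed. That test was added after the ratios had been seen. In edgeR the change was not called for Ikzf3 (adjusted p = 0.0698 for het, 0.802 for homo) or for Ikzf1 (0.577 and 0.0952). For het against WT the log2 difference was 0.77 in pre-pro B and -0.11 in pre-B cells, a change of -0.8729 (exact permutation p = 0.005, the smallest that the 400 arrangements allow, adjusted p = 0.01). All 3 het libraries stood above all WT libraries at the earlier stage and below them at the later. Leaving out each of the 12 libraries in turn gave -1.02 to -0.75, with exact p from 0.005 to 0.01. Since het and WT did not overlap at either stage, such low p-values follow for any omission and add no support.

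For homo against WT the log2 difference was 0.34 in pre-pro B and -0.29 in pre-B cells, a change of -0.6227 (exact permutation p = 0.01, adjusted p = 0.01). Leaving out each library in turn gave -0.77 to -0.50, with exact p from 0.005 to 0.04. At the earlier stage the homo and WT libraries overlapped. Both changes share the WT libraries, and both ratios moved with library depth, whose part was not tested.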

How the results depend on the processing

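The directions of the Ikzf2 and Ikzf3 stage differences and their calls held in all 14 alternatives for each genotype. The number of members called, 0 in het against WT pre-pro B cells, was 1 with DESeq2, without a count filter, with a replicate block and in a fit of all 18 libraries, and 0 to 2 with a library left out. In homo against WT pre-pro B cells it was 1, and 0 with library size, with a sex term and in the fit of all 18, and 0 to 1 with a library left out. With library size it was 1, not 0, in homo against WT and in homo against het pre-B cells. The het interaction count was 1, not 0, with library size, with a sex term and in a fit of its own groups. Both interaction counts were 0 to 1 with a library left out.

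The labels do not say that replicate numbers pair the libraries, and in none of the 9 pairs of groups were all correlations of deviations over 0.1 (8 of 27 same-numbered pairs were, range -0.614 to 0.26). Within a genotype across the stages, 8 of 9 same-numbered pairs correlated positively (-0.06 to 0.26) and in all 9 both libraries were of the same sex, so a shared mouse is possible there and was not fitted. The replicate block moved the Ikzf3 difference of het against WT pre-pro B cells to an adjusted p of 0.0441 (log2 0.59) and the Ikzf5 stage difference in homo to 0.0661, and changed no other member's call.

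Differences near 0 changed sign. With library size, these were Ikzf3 in homo against WT (-0.12) and Ikzf5 in homo against het (-0.0171) pre-pro B cells and Ikzf1 in homo against het pre-B cells (-0.0429). With a sex term, they were Ikzf3 in homo against WT pre-pro B (-0.0437) and Ikzf1 in het against WT pre-B cells (-0.0178). In the fit of all 18, Ikzf5 in homo against WT pre-pro B cells was 0.0010 and Ikzf3 in het against WT pre-B cells 0.0027. With libraries left out, pre-pro B ranges were -0.0551 to 0.0772 (Ikzf2), -0.061 to 0.15 (Ikzf3) and -0.0562 to 0.0249 (Ikzf5) in homo against WT, and -0.0128 to 0.0917 (Ikzf5) in homo against het. Pre-B ranges were -0.45 to 0.19 (Ikzf2) and -0.091 to 0.0513 (Ikzf3) in het against WT, -0.18 to 0.0347 (Ikzf3) in homo against WT, and -0.10 to 0.29 (Ikzf1) and -0.17 to 0.0436 (Ikzf3) in homo against het. Interactions ran from -0.60 to 0.0584 (Ikzf2, het), -0.0837 to 0.73 (Ikzf2, homo) and -0.22 to 0.0013 (Ikzf3, homo). The cause was not tested.

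Over all genes the calls ran from 0 to 1901 (68 as reported) in het against WT, 213 to 2747 (2730) in homo against WT and 0 to 223 (2) in homo against het pre-pro B cells, and from 336 to 3005 (705), 1055 to 3456 (1811) and 52 to 1604 (216) in pre-B cells. Within 100 kb there were 10 Ikaros peaks in homo pre-B cells and 24 in homo thymocytes. At a −log10 q of at least 5 there were 3 and 8, with 3 in WT pre-B cells and 4 in WT thymocytes, of which 2 and 4 were shared with homo. With overlap of at least 50% of the shorter peak, 3 of 3 WT pre-B and 7 of 8 WT thymocyte peaks were shared. The Aiolos peak was lost at 5 kb (0) and at that q (0). Ikzf4 in all groups and Ikzf2 in pre-B cells were limited by low counts, and homo pre-B replicate 3 by depth.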
